A study of Mus musculus with 16 samples.

Results

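The mouse genome carries 4 Hox clusters, and the 39 genes of HoxA, HoxB, HoxC and HoxD are examined here in induced pluripotent stem cells (iPSC) derived from 2 tissues. The members were all genes whose symbol is Hoxa, Hoxb, Hoxc or Hoxd followed by a number. These were 39 of the 43984 genes in the histone table and 39 of the 55471 genes in the methylation table, with 11 genes in HoxA, 10 in HoxB, 9 in HoxC and 9 in HoxD. Paralogue groups 1 to 3 are called anterior (8 genes), groups 4 to 8 central (15 genes) and groups 9 to 13 posterior (16 genes).

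Hox genes encode homeodomain transcription factors that specify position along the body axis. Within each cluster they lie in the order in which they act, from anterior to posterior, and genes of the same number in different clusters are paralogues. In pluripotent cells Hox promoters are a textbook case of bivalent chromatin, where the activating mark H3K4me3 and the repressive Polycomb mark H3K27me3 occur together. Hox10 and Hox11 genes act in kidney and limb patterning, Hoxb7 is active in the ureteric bud, and Hox13 genes pattern the most posterior structures, among them the tail.

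The study asked whether iPSC lines keep epigenetic features of the cell they came from. Lines PTC11 and PTC12 came from kidney proximal tubule cells (PTC), and lines TTF1 and TTF4 from tail tip fibroblasts (TTF). All came from adult mice with the transgenes SLC34a1-GCE, tdTomato, rtTAROSA (neo-in) and OKMS-250, the last 2 of which let doxycycline switch on Oct4, Klf4, c-Myc and Sox2. In PTC the Cre recombinase was driven by the Slc34a1 promoter and activated by tamoxifen in the diet, and the cells were sorted for tdTomato and GFP. In TTF, Cre was supplied by a non-integrating episomal plasmid. Each line is 1 clone that grew without doxycycline on mouse embryonic fibroblast feeders, and the labels do not tie a line to one of the 2 mice.

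DNA methylation at CpG dinucleotides (mCpG), H3K4me3 and H3K36me3 were measured with 1 library per line, so each origin had 2 lines. mCpG is the fraction of methylated CpGs within 1 kb of the transcription start site (TSS), H3K4me3 and H3K27me3 are input-subtracted RPKM (reads per kilobase, scaled to the mapped reads) in peaks at the TSS, and H3K36me3, a mark of elongating transcription, is the same quantity in peaks of the gene body. For H3K27me3 both PTC libraries are labelled as line PTC11, so the origins were not compared for that mark. The files hold no read counts or CpG coverage, so the depth behind each value is unknown. Of 12 iPSC markers, 9 had an H3K4me3 value in all 4 lines, against 1 of 10 fibroblast markers (Thy1) and 1 of 10 proximal tubule markers (Lrp2). The lists differed much less in H3K36me3, where 8 of 12, 6 of 10 and 6 of 10 had a value in all 4 lines. A table cell with no value means that no peak was assigned, not a measured zero.

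The sequence around a Hox TSS differs widely in CpG content, and a CpG-rich and a CpG-poorer example are shown because their mCpG also differed. RefSeq promoter sequences (build GRCm38.p6, 250 bases before to 50 after the start) were found for 22 of the 39 members, and for 12 of these the start lay within 10 bases of that in the methylation table. Hoxa13 is at chr6:52260831-52261130 on the minus strand and Hoxd12 at chr2:74674763-74675062 on the plus strand. CpGs (the letters CG, which read the same on both strands) are in capitals.
Hoxa13: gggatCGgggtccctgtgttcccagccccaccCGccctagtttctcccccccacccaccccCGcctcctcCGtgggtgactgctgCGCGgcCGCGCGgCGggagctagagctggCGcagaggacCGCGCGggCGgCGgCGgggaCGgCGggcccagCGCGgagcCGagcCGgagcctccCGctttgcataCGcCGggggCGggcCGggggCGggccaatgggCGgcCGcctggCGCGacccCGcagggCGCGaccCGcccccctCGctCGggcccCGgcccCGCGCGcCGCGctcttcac
Hoxd12: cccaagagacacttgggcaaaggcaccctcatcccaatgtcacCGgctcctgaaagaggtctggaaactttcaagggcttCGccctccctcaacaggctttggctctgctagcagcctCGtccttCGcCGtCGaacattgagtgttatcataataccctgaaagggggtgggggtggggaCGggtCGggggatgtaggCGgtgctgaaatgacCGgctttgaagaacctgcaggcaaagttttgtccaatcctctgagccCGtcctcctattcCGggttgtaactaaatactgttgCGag
The Hoxa13 sequence holds 45 CpGs, a number reached by 1.93% of the 32851 promoters in the table, and the Hoxd12 sequence holds 13, reached by 37.9%. Hoxa13 had an mCpG fraction of 0.0581 (PTC11), 0.0965 (PTC12), 0.0121 (TTF1) and 0.0389 (TTF4). Hoxd12, which neighbours Hoxd13 in its cluster, had 0.238, 0.300, 0.0944 and 0.551 in the same order. Hoxa13 was thus low in every line, while Hoxd12 spanned the widest range between lines of all 39 members. The pair was picked as an example and does not stand for all members. The Hoxd11 sequence at the matching start holds 4 CpGs, yet its fractions were 0.0375, 0.0978, 0.0273 and 0.0471. Within 1 kb of the TSS, where mCpG was measured, Hoxd12 has 86 CpGs and Hoxa13 has 194.

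Hox TSS were little methylated compared with other genes. The median fraction of the 39 members was 0.0796 (PTC11), 0.113 (PTC12), 0.0850 (TTF1) and 0.149 (TTF4), against 0.385, 0.539, 0.374 and 0.770 over all genes. A fraction under 0.2 in all 4 lines was found for 20 of 39 members (51.3%), compared with 12.4% of all genes. TTF4 was the most methylated line genome-wide, with a mean fraction of 0.649 against 0.372 to 0.482 in the other lines. It was the highest line at 21 of 39 Hox genes (53.8%) and at 75.4% of all genes. Windows of 1 kb to each side of the TSS held a median of 88 CpGs at Hox genes (20 to 194) and 27 at all genes. Over the 39 members, CpG number and mean fraction had a Spearman correlation of -0.642, and over 50657 genes one of -0.636. These points share the same 4 libraries and neighbouring windows can overlap, so the correlations are given as a description only.

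**Figure D1:**
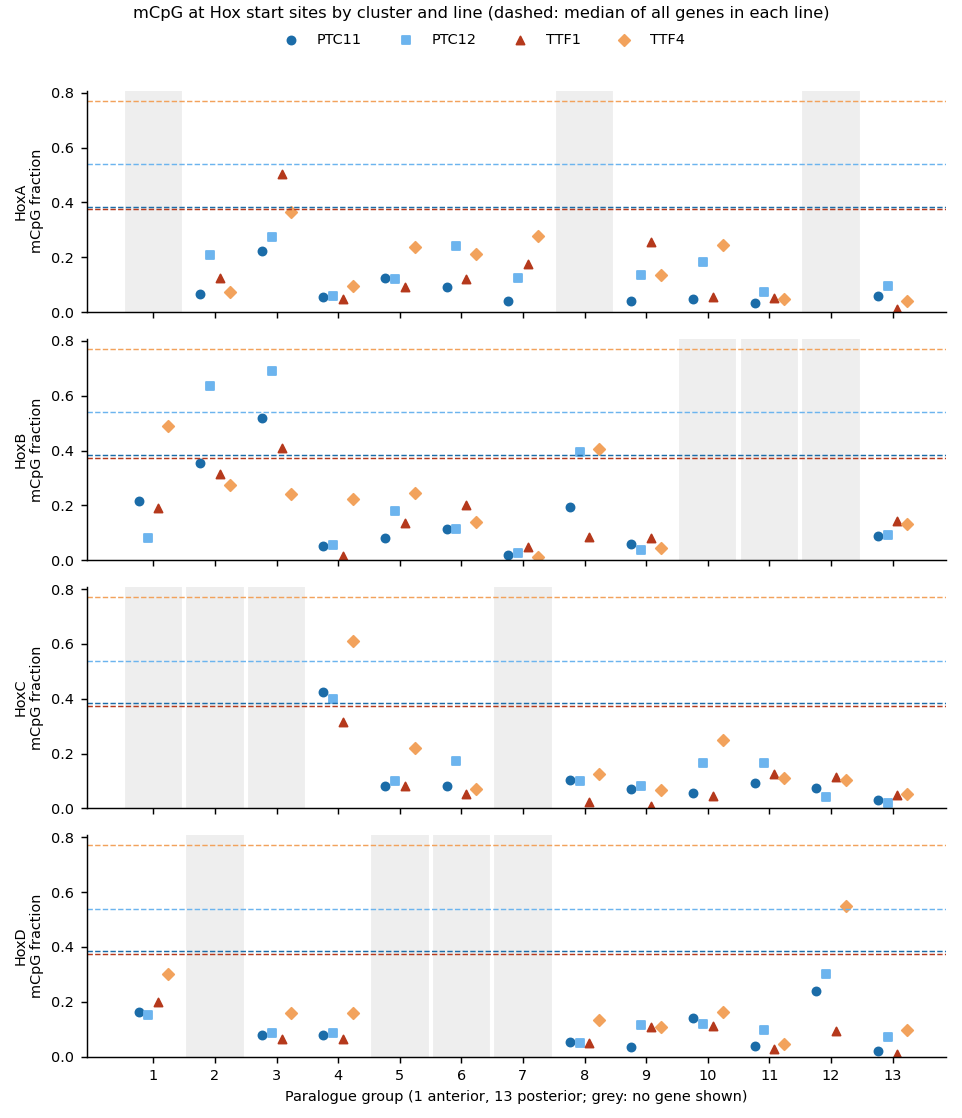
mCpG fraction within 1 kb of the TSS (vertical axis) of the Hox genes shown, by paralogue group (horizontal axis), with 1 panel per cluster and 1 point per line; dashed lines are the medians of all genes in each line and grey columns mark numbers with no gene shown. Most points lie below the dashed lines, and Hoxa3, Hoxb3, Hoxc4 and Hoxd12 reach highest in their clusters.

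The higher fractions were more frequent in the anterior groups, where Hoxb3, Hoxb2 and Hoxa3 were 3 of the 4 members with the highest means. The highest mean over the 4 lines was that of Hoxb3 (0.465, SD 0.187), followed by Hoxc4 (0.437). The lowest was that of Hoxb7 (0.0266), followed by Hoxc13 (0.0377) and Hoxd13 (0.0490). Hoxb7 had 0.0200 (PTC11), 0.0279 (PTC12), 0.0486 (TTF1) and 0.0100 (TTF4), so all lines were near the bottom of the scale. Anterior genes had medians of 0.190, 0.180, 0.195 and 0.258 in PTC11, PTC12, TTF1 and TTF4, against 0.0572, 0.0971, 0.0695 and 0.107 for posterior genes. The anterior median was therefore above the posterior median in each of the 4 lines. The gap between the highest and lowest line had a median of 0.107 and ran from 0.0325 at Hoxc13 to 0.456 at Hoxd12. Hoxd3 and Hoxd4 are listed with starts 2 bases apart in the methylation table and so share a window, and their values are not independent. The starts of Hoxc5 and Hoxc10 are 647 bases apart there, so their windows overlap. The window of Hoxc4 lay 15461 bases from the RefSeq start of that gene. That of Hoxa3 is centred on chr6:52213336, between Hoxa6 and Hoxa7, so its fraction was not read at the anterior end of HoxA. The histone annotation has the same Hoxa3 start, so this also holds for its H3K4me3 and H3K27me3.

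H3K4me3 was found at most Hox TSS, although unevenly between clusters and lines. A value was listed for 24 (PTC11), 36 (PTC12), 35 (TTF1) and 30 (TTF4) of the 39 members, and for 22 members (56.4%) in all 4 lines, compared with 31.2% of all genes. HoxA had a value in all lines at 8 of 11 genes, HoxD at 6 of 9, HoxC at 5 of 9 and HoxB at 3 of 10. The 3 HoxB genes were Hoxb8, Hoxb9 and Hoxb13. Hoxb3, Hoxc4 and Hoxd4 had no value in any line. A further 13 members had one in both PTC12 and TTF1 but not in both PTC11 and TTF4. PTC12 and TTF1 also had the most genes with a value genome-wide (19990 and 19448 of 43984, against 15114 in PTC11 and 15368 in TTF4), and this split does not follow the origin.

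**Figure D2:**
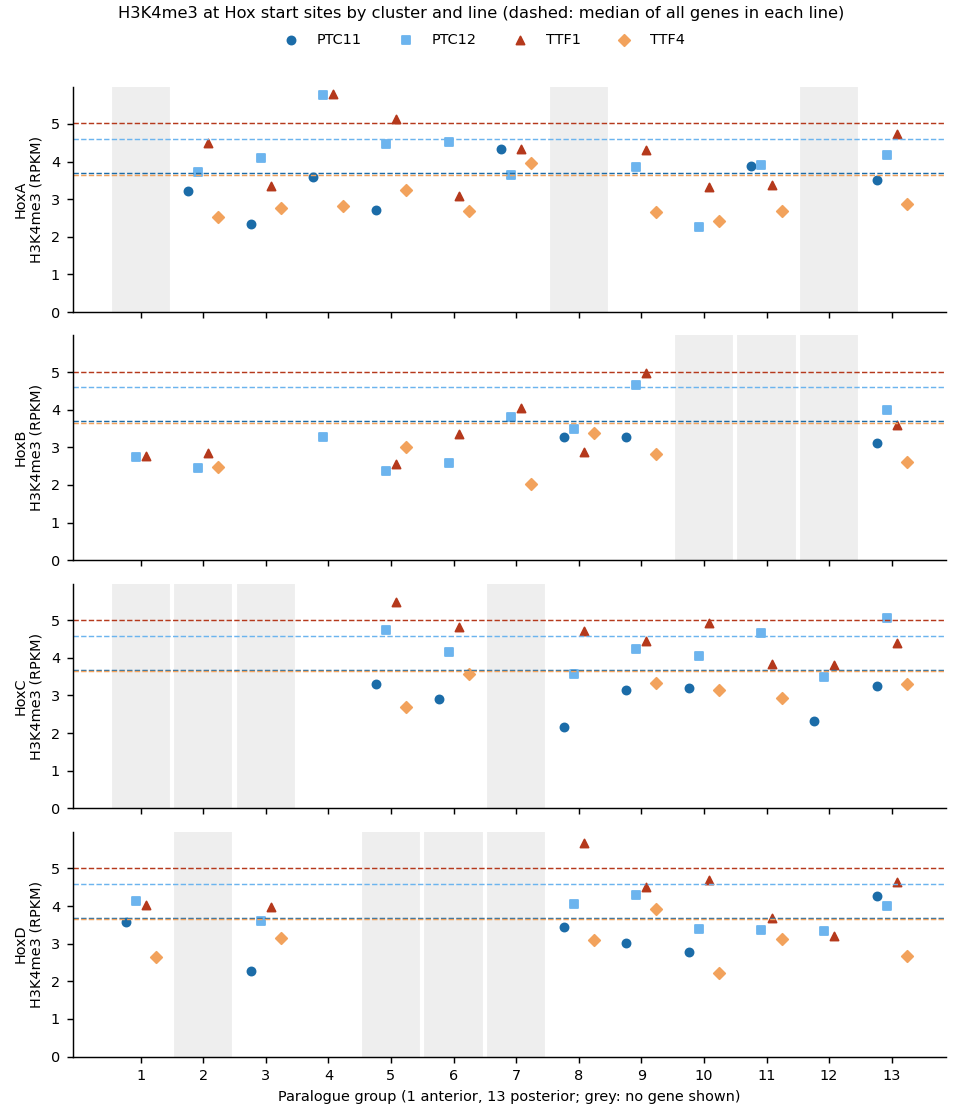
H3K4me3 in RPKM at the TSS (vertical axis) of the Hox genes shown, by paralogue group (horizontal axis), with 1 panel per cluster and 1 point per line; dashed lines are the medians of all genes with a value in each line. HoxB has the fewest points, and PTC12 and TTF1 lie above the other lines at most genes with 4 values.

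Where it was present, the level of H3K4me3 at Hox genes was moderate. The median was 3.24 RPKM (PTC11), 3.95 (PTC12), 4.30 (TTF1) and 2.84 (TTF4), against 3.69, 4.59, 5.01 and 3.65 over all genes with a value. Hoxa3 had the lowest mean over the 4 lines (3.14 RPKM), with 2.35, 4.11, 3.34 and 2.78 RPKM in PTC11, PTC12, TTF1 and TTF4. PTC12 and TTF1 both lay above PTC11 and TTF4 at 18 of 22 members (81.8%), a share like that of all genes (81.4%).

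Members with H3K4me3 in all lines had lower mCpG medians in every line than the rest. The 22 such members had median fractions of 0.0613, 0.0990, 0.0723 and 0.133 in PTC11, PTC12, TTF1 and TTF4, and a median of 100.5 CpGs in the window. The 14 members with a value in 1 to 3 lines had 0.0858, 0.123, 0.117 and 0.175, with 74 CpGs. The 3 members without H3K4me3 had 0.425, 0.398, 0.316 and 0.243, with 23 CpGs. For Hoxd4 and Hoxc5 the methylation window lies at another start than the H3K4me3 window, so the 2 marks were not read at the same place. The Hoxc5 start is at chr15:102967443 for mCpG and chr15:103013815 for H3K4me3, and Hoxc5 is among the 22. The starts also differ between the marks at other members, among them Hoxa6, Hoxb2, Hoxb4 and Hoxb7.

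Hox genes made up a large share of the few genes with H3K27me3. A value above 0 in at least 1 library was listed for 22 of 39 members, and for 137 of all 43984 genes, so that Hox genes were 16.1% of them. The first PTC11 library had 7 Hox genes among 33 genes above 0, the second had 16 among 93, TTF1 had 11 among 41, and TTF4 had 0 among 11. HoxB had the mark at 9 of 10 genes, HoxC at 5 of 9, HoxA at 5 of 11 and HoxD at 3 of 9. Anterior, central and posterior genes had it at 5 of 8, 8 of 15 and 9 of 16.

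**Figure D3:**
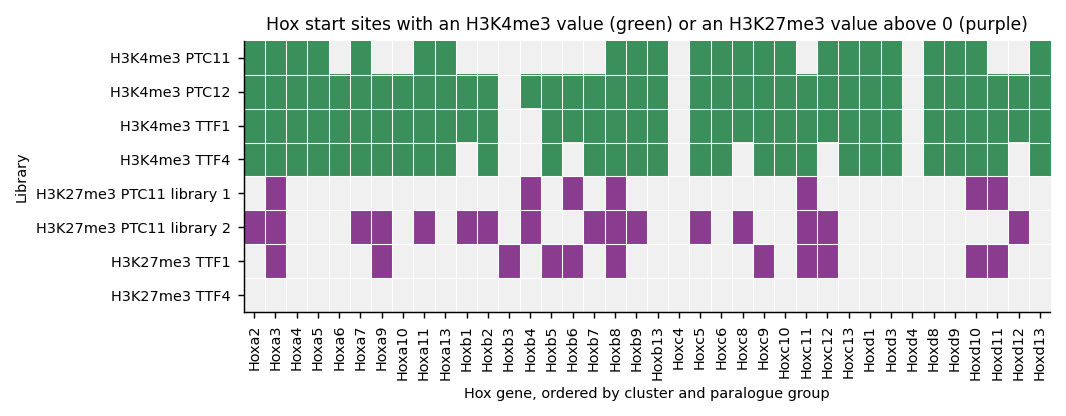
Presence of a listed H3K4me3 value (green) and of an H3K27me3 value above 0 (purple) for the Hox genes shown (horizontal axis) in each library (vertical axis); grey means neither. H3K4me3 is present in all 4 lines at more HoxA than HoxB genes, and TTF4 has no Hox gene with H3K27me3.

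Only 3 members were above 0 in 3 of the 4 H3K27me3 libraries, out of 8 genes among all genes. Hoxa3, read at its listed start between Hoxa6 and Hoxa7, had 2.61 and 3.09 RPKM in the PTC11 libraries and 1.84 in TTF1. Hoxb8 had 2.59, 1.71 and 1.51 RPKM, and Hoxc11 had 2.12, 2.32 and 3.74 RPKM. Few genes of any kind recurred: 9 of the 22 members and 33 of all 137 genes with the mark were above 0 in 2 or more libraries. The 2 PTC11 libraries shared only 4 Hox genes, of 19 with the mark in either, although both carry the same line label. The study's published coverage tracks include a PTC12 track for this mark, so the second library may be line PTC12, and whether the 4 of 19 compares 1 line with itself or 2 lines cannot be told. Of the 22 members with H3K27me3, 21 also had H3K4me3 in at least 1 line, the exception being Hoxb3, but only 9 of 22 had it in all 4 lines, against 13 of the 17 members without H3K27me3. The marks came from separate libraries of bulk cells, so whether they lay on the same chromosomes was not measured.

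H3K36me3 was listed for nearly every Hox gene body. All 4 lines had a value at 37 of 39 members (94.9%), against 38.7% of all genes, and the 2 others (Hoxb5 and Hoxd10) lacked one in TTF1. Among the markers, Pou5f1 and Nanog had no value in TTF4, while the proximal tubule markers Lrp2 and Cubn had one in all 4 lines. A listed value is therefore not read here as transcription of the gene. The median over members was 1.93 RPKM (PTC11), 4.79 (PTC12), 1.35 (TTF1) and 4.53 (TTF4), compared with 1.60, 3.88, 1.18 and 4.01 over all genes with a value. PTC12 and TTF4 both lay above PTC11 and TTF1 at 36 of 37 members (97.3%), and at 93.6% of all genes. This pairing of lines differs from that in H3K4me3 and again crosses the origins. Its direction is the reverse of the study's description of read coverage at Jag1 and Gata3, where H3K36me3 was higher in PTC11 and TTF1. Read coverage and mean RPKM over peaks are different measures, and the cause of the reversal was not tested.

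**Figure D4:**
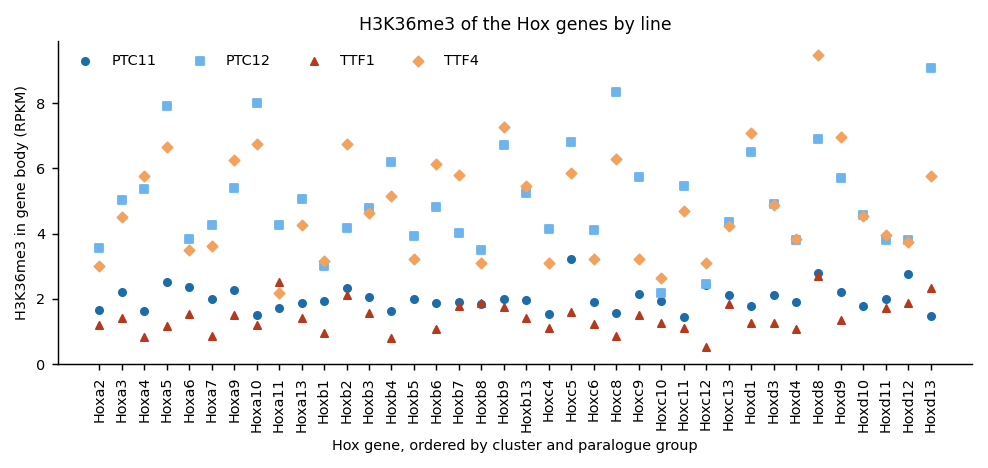
H3K36me3 in RPKM in the gene body (vertical axis) of the Hox genes in order of cluster and paralogue group (horizontal axis), with 1 point per line. PTC12 and TTF4 (squares and diamonds) lie above PTC11 and TTF1 at the genes with 4 values, with Hoxa11 as the exception.

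Hoxd8 had the highest mean H3K36me3 (5.46 RPKM), with 2.78 (PTC11), 6.89 (PTC12), 2.69 (TTF1) and 9.47 (TTF4). Hoxc10 had the lowest (2.00 RPKM), and its lines ran from 1.26 in TTF1 to 2.64 in TTF4. Hoxd13 showed the widest spread, at 1.47, 9.08, 2.35 and 5.77 RPKM. By their histone coordinates, 8 members overlap another Hox gene in position (Hoxa3 with Hoxa4, Hoxa5 and Hoxa6, Hoxb7 with Hoxb8, and Hoxd3 with Hoxd4), and peaks in the shared stretches cannot be assigned to a single gene.

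No Hox gene passed the test of a difference between TTF and PTC iPSC lines in any of the 3 marks. limma was fitted across all genes with 4 values, and p-values were adjusted by the Benjamini-Hochberg method over all of them. With an adjusted p threshold of 0.05, 0 of 22 members were called in H3K4me3 (0.481% of 13709 genes), 0 of 37 in H3K36me3 (0.112% of 17039 genes) and 0 of 39 in mCpG (0.00395% of 50657 genes). At an unadjusted p under 0.05, the numbers of members were 0, 0 and 1 (Hoxb3), where the shares of all genes were 0.977%, 0.681% and 4.72%. In simulated data with the spread between these lines the same fit did not call large planted changes, so the lack of calls does not show that the origins are alike. With 2 lines per origin an exact permutation test of a single value cannot go below p = 0.333, and these tests measure the spread between clones.

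mCpG was compared after subtracting the mean fraction of each line over all genes, which is highest in TTF4. A gene with equal low fractions in all lines then comes out lower in TTF lines. Hoxb7, near the bottom of the scale in every line, had a difference of 0.00539 as deposited and -0.0817 after subtraction. Hox fractions are mostly low, so counts of direction on the centred scale include this shift. On the centred scale 5 members were higher and 34 lower in TTF lines (47.0% of all genes were higher). The median difference was -0.0572 against -0.0100 over all genes tested. On the deposited fractions 28 were higher and 11 lower (75.5% of all genes were higher), with medians of 0.0299 and 0.0771. With quantile normalization 16 were higher and 23 lower (50.1% of all genes were higher). The direction of the Hox genes as a group thus depended on how the lines were scaled.

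**Figure D5:**
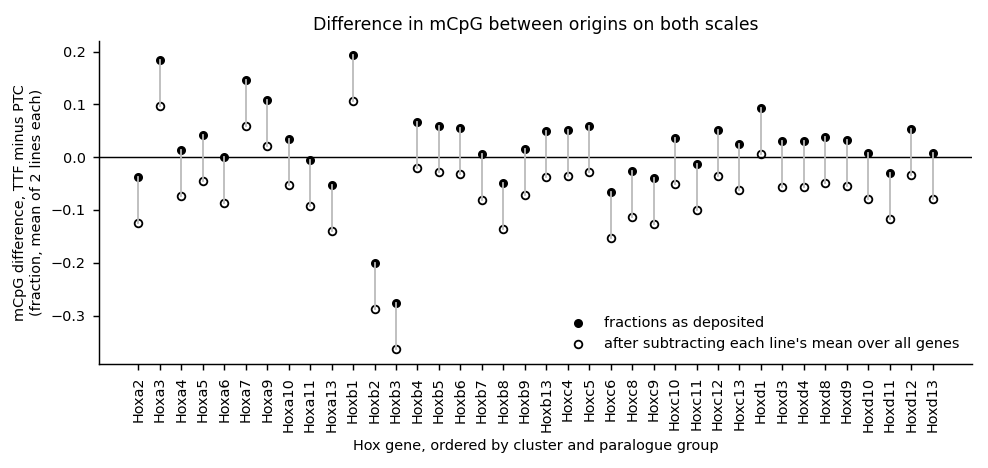
Difference in mCpG fraction, TTF minus PTC (mean of 2 lines each, vertical axis), for the Hox genes shown (horizontal axis), from the deposited fractions (filled) and after subtracting the mean of each line over all genes (open). Subtraction moves every point down by the same amount, and Hoxb2 and Hoxb3 are the lowest on both scales.

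The neighbours Hoxb2 and Hoxb3, which act in hindbrain patterning, had the lowest differences. Their windows hold only 20 and 23 CpGs, against a median of 88 over the members, so the fractions rest on few sites of unknown coverage. Hoxb3 had fractions of 0.518 (PTC11), 0.689 (PTC12), 0.410 (TTF1) and 0.243 (TTF4), so the origins did not overlap. Its mean was 0.604 ± 0.121 in PTC lines and 0.327 ± 0.118 in TTF lines (SD, n = 2), and the centred difference was -0.364 (SE 0.157, limma adjusted p = 0.950). Hoxb2 had 0.355, 0.636, 0.315 and 0.273, with a centred difference of -0.288 (SE 0.149, limma adjusted p = 1.00). Among the 50657 genes, 1.05% had a lower difference than Hoxb3 and 2.61% a lower one than Hoxb2. TTF4, the line with the most methylation genome-wide, had the lowest fraction at 3 of 39 members (7.69%), namely Hoxb2, Hoxb3 and Hoxb7. It was the lowest line at 2.99% of all genes. This count uses the same fractions as the differences, and Hoxb7 was near the bottom of the scale in every line. Without TTF1, which leaves TTF4 as the lone TTF line, the centred differences of Hoxb3 and Hoxb2 were -0.583 and -0.444. Without TTF4 the differences were -0.146 and -0.132.

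Hoxc6 was next, with 0.0808 and 0.174 in PTC lines and 0.0540 and 0.0701 in TTF lines, and a centred difference of -0.152, which was -0.0250 without TTF4 and -0.0651 without centring. At the other end Hoxb1 had 0.215, 0.0817, 0.192 and 0.491 in PTC11, PTC12, TTF1 and TTF4, with a centred difference of 0.106 and TTF4 well above the other lines. Hoxa3 had 0.222, 0.275, 0.502 and 0.365, and Hoxa7 had 0.0384, 0.123, 0.176 and 0.277, with centred differences of 0.0979 and 0.0586. On the centred scale 5 members had both TTF lines below both PTC lines (12.8% of all genes did) and 0 had both above (15.0% of all genes). On the deposited fractions these numbers were 5 and 9, with 3.36% and 20.5% of all genes. Hoxb2, Hoxb3 and Hoxc6 were below on the centred, deposited and quantile-normalized scales.

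Differences in H3K4me3 were small beside their errors. On the log2(RPKM + 1) scale 9 of 22 members were higher and 13 lower in TTF lines (60.8% of all genes were higher). The median was -0.03 against 0.04 over all genes tested. Hoxa11, which acts in kidney and forelimb development, was the only member whose origins did not overlap (3.17% of all genes had both TTF lines below, 5.04% both above). It had 3.87 RPKM (PTC11), 3.92 (PTC12), 3.36 (TTF1) and 2.68 (TTF4). The log2 difference was -0.29 (SE 0.32, limma adjusted p = 1). Hoxd1 and Hoxd13 followed with log2 differences of -0.18 and -0.17, and Hoxd3, Hoxc6 and Hoxa5 were the highest at 0.23, 0.20 and 0.18.

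In H3K36me3, 3 of 37 members were higher and 34 lower in TTF lines on the log2(RPKM + 1) scale (25.3% of all genes were higher). The median was -0.20 against -0.14 over all genes tested. The origins overlapped at every member (0.452% of all genes had both TTF lines above and 3.05% both below). Among the lowest log2 differences were those of Hoxc9 (-0.50) and Hoxc12 (-0.47), and the highest those of Hoxb2 (0.24), Hoxb7 (0.19) and Hoxd8 (0.19). For Hoxc9 the mean was 3.94 ± 2.55 RPKM in PTC lines and 2.37 ± 1.23 in TTF lines (SD, n = 2), and the SE of the log2 difference was 1.11. No member had non-overlapping origins in 2 or more marks on these scales. With quantile normalization 6 did, among them Hoxc6 in all 3 marks (above in H3K4me3, below in H3K36me3 and mCpG). The share of all genes that did so in 2 or more marks was not computed, so the 6 are not read as a trait of Hox genes. Per mark, both TTF lines were above or below at 14.2% and 14.4% of all genes in H3K4me3. These shares were 16.3% and 13.7% in H3K36me3, and 16.5% and 17.1% in mCpG.

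Groups 10, 11 and 13 were examined as genes whose expression domains lie at kidney or tail level. None of these 10 genes was called in any mark. In mCpG, group 13 had medians of 0.0441 (PTC11), 0.0801 (PTC12), 0.0299 (TTF1) and 0.0750 (TTF4). Group 11 had medians of 0.0375, 0.0978, 0.04995 and 0.0471, and group 10 had 0.0563, 0.166, 0.0562 and 0.243. In each of these groups the gap between the PTC lines exceeded that between the means of the origins. On the centred scale all 10 were lower in TTF lines, while on the deposited fractions 6 were higher and 4 lower. Of all genes 47.0% and 75.5% were higher on these 2 scales.

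All 4 group 13 genes had H3K4me3 in every line, with medians of 3.38, 4.09, 4.51 and 2.78 RPKM in PTC11, PTC12, TTF1 and TTF4. In PTC11, Hoxa10, Hoxc11 and Hoxd11 had no H3K4me3 value, while in the other 3 lines all members of groups 10 and 11 had one. Of the 7 genes of groups 10, 11 and 13 tested for H3K4me3, 2 were higher and 5 lower in TTF lines (60.8% of all genes were higher). H3K36me3 medians of group 13 were 1.93, 5.16, 1.62 and 4.86 RPKM, again split between PTC12 and TTF4 on one side and PTC11 and TTF1 on the other. All 9 tested were lower in TTF lines in H3K36me3, where 25.3% of all genes were higher. With quantile normalization 6 were higher and 3 lower, and 52.6% of all genes were higher. Hoxb7 had H3K4me3 of 3.81, 4.05 and 2.03 RPKM in PTC12, TTF1 and TTF4, and none in PTC11.

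The clusters also hold microRNA genes, and the mature sequences are shown because 5 of the genes below fall into 2 families by shared seed (bases 2 to 8, in capitals; RefSeq, GRCm38.p6). miR-10a and miR-10b lie beside Hoxb4 and Hoxd4, and the miR-196 genes beside Hox9 genes or Hoxc10.
mmu-miR-10a-5p: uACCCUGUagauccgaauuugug
mmu-miR-10b-5p: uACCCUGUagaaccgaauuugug
mmu-miR-196a-5p: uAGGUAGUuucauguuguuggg
mmu-miR-196b-5p: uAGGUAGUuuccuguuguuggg
Mir196a-1 and Mir196a-2 encode the same mature miR-196a-5p, at chr11:96265187-96265208 and chr15:102973365-102973386 on the plus strand. Mir196a-1 had mCpG fractions of 0.522 (PTC11), 0.623 (PTC12), 0.268 (TTF1) and 0.184 (TTF4), and both TTF lines were below both PTC lines. Its centred difference was -0.434 (SE 0.149, limma adjusted p = 0.674). Mir196a-2, of the same seed, had 0.1997, 0.346, 0.181 and 0.392, and Mir196b had 0.0459, 0.0998, 0.0905 and 0.139. On the deposited fractions the origins overlapped at both genes, while on the centred scale Mir196a-2 had both TTF lines below both PTC lines (centred difference -0.0732, SE 0.136, limma adjusted p = 1.00).

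Among all 16 noncoding genes listed in the clusters, 0 were called in mCpG (0.00395% of all genes). At an unadjusted p under 0.05 there was 1, Mir196a-1 (4.72% of all genes). On the centred scale 5 had both TTF lines below both PTC lines, where 12.8% of all genes did. In H3K4me3, Hoxb3os, a transcript antisense to Hoxb3 whose start lies in the Hoxb2 gene in the histone table, had 3.01 and 3.49 RPKM in PTC lines and 6.46 and 5.17 in TTF lines. The log2 difference was 0.68 (SE 0.42, limma adjusted p = 1), and only 25 of 13709 genes had a higher one. In the same stretch Hoxb2 had 2.46, 2.85 and 2.48 RPKM in PTC12, TTF1 and TTF4 and no value in PTC11. Hotair, a noncoding RNA of HoxC known for its link to Polycomb, had H3K27me3 of 2.18 RPKM in the first PTC11 library, 1.72 in TTF1 and 2.36 in TTF4.

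Of the genes that act with or on the Hox clusters, none with 4 values was called in H3K4me3, H3K36me3 or mCpG among 9 TALE cofactors of Hox proteins, 10 upstream regulators, 5 ParaHox and Evx genes and 17 Polycomb and trithorax regulators. At an unadjusted p under 0.05 there were 0 in H3K4me3 and H3K36me3, and in mCpG 2 upstream regulators and 1 Polycomb and trithorax regulator (4.72% of all genes in mCpG). The largest of these were Rarb, a retinoic acid receptor (centred difference -0.374, limma adjusted p = 0.963), and Kdm6b, an H3K27 demethylase (0.342, limma adjusted p = 0.924). The summed mCpG of the 10 fibroblast markers was 2.96 and 3.77 in PTC lines and 2.99 and 5.07 in TTF lines, and that of the 10 proximal tubule markers was 4.19, 5.83, 4.25 and 7.93. The part of feeder cells in the Hox values was not tested.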

How the data were processed

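mCpG, H3K4me3, H3K27me3 and H3K36me3 were measured in mouse iPSC lines PTC11, PTC12, TTF1 and TTF4. For mCpG the deposited values are fractions that the authors made from nanopore reads (minimap2 2.17-r941 and Nanopolish calls, averaged over windows around the TSS). For the histone marks the deposited values are RPKM that the authors obtained with Bowtie2 2.1.0 (mm10), MACS2 2.0.10 and bedtools 2.17.0, after input subtraction, as the mean over peaks at the TSS or in the gene body; versions are from the submitters' processing notes. The 2 tables use different gene annotations. CpGs were counted in GRCm38.p6.

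TTF and PTC lines were compared with limma 3.58.1 in R 4.3.3 (linear fits per gene, with variances moderated along a trend) on log2(RPKM + 1), or on mCpG minus the mean of its line, over all genes with a value in 4 lines; fold changes on this scale understate those of low genes. Tested on simulated data, the fit recovered planted changes at a much smaller spread than that between the lines, and none at the full spread. The 2 mice are not tied to lines in the labels, so p-values measure the spread between clones, which may share an animal. Alternatives were another pseudocount, a filter on low values, no centring, quantile normalization, no trend, chromosomes X and Y left out, genes with a value in 1 line of each origin, and leaving out each line. Named in full were the 3 largest and 3 smallest differences, the highest and lowest level per mark, groups 10, 11 and 13, and Hoxb7; 1 member that the rule names is counted in totals but not reported here by name or drawn. Members and lists were chosen with earlier results of these data known.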

Additional observations from a re-analysis of the deposited data

How the results depend on the processing

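No paired analysis was possible because PTC and TTF lines carry different numbers and no label ties a line to a mouse. No Hox gene was called in H3K4me3 or H3K36me3 under any alternative, and 0 to 2 were called in mCpG when a line was left out, the 2 (Hoxb3 and Hoxb2) without TTF1 alone. Quantile normalization raised the number of members with non-overlapping origins to 6 in H3K4me3, 11 in H3K36me3 and 9 in mCpG (above and below in 14.2% and 14.4%, 16.3% and 13.7%, and 16.5% and 17.1% of all genes), and turned Hoxc10 in H3K36me3 to 0.00236 and Hoxb7 in mCpG to 0.0123, while Hoxb7 was 0.00539 without centring; the cause was not tested. Leaving out 1 line moved the median Hox difference from -0.280 to 0.254 in H3K4me3, from -0.842 to 0.389 in H3K36me3 and from -0.175 to 0.0366 in mCpG. In H3K4me3 the same ranges were -0.411 to 0.0556 for Hoxd1, -0.480 to 0.135 for Hoxd13, -0.335 to 0.275 for Hoxa3, -0.0975 to 0.459 for Hoxa5, -0.00224 to 0.404 for Hoxc6 and -0.0175 to 0.470 for Hoxd3, and Hoxa11 stayed below 0 (-0.413 to -0.165). In H3K36me3 they were -1.05 to 0.0520 for Hoxc9, -1.18 to 0.247 for Hoxc12, -0.429 to 0.255 for Hoxc10, -0.564 to 0.939 for Hoxd8, -0.451 to 0.833 for Hoxb7 and -0.413 to 0.897 for Hoxb2. In mCpG they were -0.236 to 0.0728 for Hoxb7, -0.0262 to 0.143 for Hoxa7, -0.106 to 0.302 for Hoxa3, -0.0162 to 0.227 for Hoxb1, -0.279 to -0.0250 for Hoxc6, -0.583 to -0.146 for Hoxb3 and -0.444 to -0.132 for Hoxb2. Over these alternatives the limma adjusted p of Hoxb3 ranged from 0.00845 to 1. Coverage and read depth are unknown, and 2 lines per origin limit every comparison.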
